A study of Rattus norvegicus with 8 samples.

Results

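The immediate early genes described here are 10 genes named by symbol, Fos, Fosb, Jun, Junb, Egr1, Egr2, Atf3, Ier2, Nr4a1 and Dusp1. Of these, 9 had a probe set with that symbol alone in the platform annotation, each with 1 probe set, among 14506 genes tested. Fosb had none and is not analysed here. The values come from 8 Affymetrix Rat Gene 1.0 ST arrays, with 2 arrays in each of 4 groups. The groups are the ductus arteriosus (DA) of Brown-Norway (BN) rats, the aorta of BN rats, the DA of Fischer344 (F344) rats and the aorta of F344 rats. Per the labels all were full-term neonates taken 1 h after birth, and RNA was extracted from pooled tissues. The labels name no treatment and no engineered allele. How many animals made up a pool, and whether the replicates of a group were separate pools, is not in the labels; the p-values therefore cover the spread between these arrays, which may be technical. No array was made before birth, so the values compare vessels and strains 1 h after birth and hold no change with time.

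The DA joins the pulmonary artery to the aorta in the fetus and constricts within hours of birth, when oxygen rises and prostaglandin E2 falls. BN is an inbred strain that has been used in studies of a ductus that fails to close, and F344 is another inbred strain. Immediate early genes are transcribed within minutes of a stimulus, without the need for new protein. Kinase cascades reach them through transcription factors already bound at their promoters, such as serum response factor at the CArG box and CREB at the cAMP response element. Stretch, growth factors, hypoxia and tissue handling are known stimuli. Fos and Fosb pair with Jun and Junb in the AP-1 factor, Egr1 and Egr2 are zinc finger factors, Atf3 is a stress-induced factor of the ATF and CREB family, and Nr4a1 is an orphan nuclear receptor. Dusp1 is a phosphatase that switches off the p38, JNK and ERK kinases, and Ier2 is a short-lived nuclear protein.

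Values are log2 units from RMA, so 1 unit is a 2-fold difference, and they are compared only between arrays for the same gene. Contractile smooth muscle markers, among them Acta2 and Myh11, were bright on every array. The list of 10 had means between 11.50 and 11.76 in BN DA, 11.17 and 11.42 in BN aorta, 11.70 and 11.86 in F344 DA, and 11.26 and 11.34 in F344 aorta. As a gauge of dim signal, 1283 genes of olfactory, vomeronasal, taste and trace amine receptors had medians of 5.29 and 5.61 on the BN DA arrays, 4.93 and 5.09 in BN aorta, 5.97 and 6.04 in F344 DA, and 5.04 and 5.17 in F344 aorta. Atf3, Egr1, Jun and Dusp1 lay above the 95th percentile of these receptor genes on all 8 arrays, Fos on 7, Junb on 6, Nr4a1 and Ier2 on 5 and Egr2 on 1. The list mean of thymocyte and lymphocyte markers was 7.08 in BN DA replicate 1, where the remaining 7 arrays gave 5.91 to 6.03.

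Promoter windows from RefSeq (build GRCr8, 250 bases before to 50 after the start that the table gives) were found for 7 of the 10 genes. They are shown for the genes with a called difference that had an entry, Nr4a1 and Dusp1, and for the Egr pair, whose windows held the CArG boxes. Capitals mark matches on either strand to TGACG, the core of the cAMP response element, and to the CArG box.
Nr4a1: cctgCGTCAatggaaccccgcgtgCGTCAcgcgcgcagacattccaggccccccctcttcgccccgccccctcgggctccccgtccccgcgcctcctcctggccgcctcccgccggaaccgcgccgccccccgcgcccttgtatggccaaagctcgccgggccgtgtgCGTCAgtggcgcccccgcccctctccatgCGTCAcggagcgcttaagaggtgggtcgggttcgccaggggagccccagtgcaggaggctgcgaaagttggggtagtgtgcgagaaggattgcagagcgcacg
Dusp1: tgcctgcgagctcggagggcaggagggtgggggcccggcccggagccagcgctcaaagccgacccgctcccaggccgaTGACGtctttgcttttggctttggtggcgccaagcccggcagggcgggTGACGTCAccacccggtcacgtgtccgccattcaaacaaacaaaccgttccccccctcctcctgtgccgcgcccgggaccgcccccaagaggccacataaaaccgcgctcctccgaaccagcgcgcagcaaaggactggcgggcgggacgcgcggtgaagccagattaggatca
Egr1: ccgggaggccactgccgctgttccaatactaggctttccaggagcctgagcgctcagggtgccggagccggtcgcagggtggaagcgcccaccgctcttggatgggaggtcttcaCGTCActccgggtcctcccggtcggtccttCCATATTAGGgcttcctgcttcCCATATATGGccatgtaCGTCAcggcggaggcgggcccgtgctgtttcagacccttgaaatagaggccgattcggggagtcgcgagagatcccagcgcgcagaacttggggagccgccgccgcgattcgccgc
Egr2: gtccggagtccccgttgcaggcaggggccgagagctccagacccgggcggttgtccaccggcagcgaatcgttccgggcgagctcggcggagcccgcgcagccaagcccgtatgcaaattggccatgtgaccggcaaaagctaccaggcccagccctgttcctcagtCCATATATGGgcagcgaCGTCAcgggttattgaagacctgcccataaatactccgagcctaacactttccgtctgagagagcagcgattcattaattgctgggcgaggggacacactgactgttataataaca
The windows lie at chr7:134259888-134260187 (plus strand) for Nr4a1, chr10:17184603-17184902 (plus strand) for Dusp1, chr18:26736828-26737127 (plus strand) for Egr1 and chr20:21054392-21054691 (minus strand) for Egr2.

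TGACG was present in 6 of the 7 windows and in 21.2% of all 33469 promoter windows of this length. Nr4a1 held 4 matches, Dusp1 3, Egr1 and Ier2 2 each, and Egr2 and Junb 1 each. In Dusp1 and in Ier2 a pair of matches overlapped on opposite strands, which spells a full palindromic cAMP response element. The CArG box was present in 2 of the 7, at -105 and -83 in Egr1 and at -83 in Egr2, and in 1.64% of all windows. In both Egr genes a TGACG match on the minus strand began at -66. The AP-1 motif TGANTCA was in 0 of the 7 windows and in 7.33% of all. A match describes these letters only.

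Atf3, which encodes a stress-induced repressor and activator of transcription, had the largest DA to aorta difference among the 9 genes in either strain and was higher in DA than in aorta in both. It was at 8.74 and 8.13 on the BN DA arrays, against 7.44 and 6.97 in BN aorta. In F344 it was at 9.08 and 8.52 in DA, against 7.48 and 7.52 in aorta. All 4 DA arrays lay above all 4 aorta arrays, as was so for 8.03% of all genes in this direction. Replicates were 0.61 apart in BN DA, 0.47 in BN aorta and 0.55 in F344 DA, less than the gap between the vessels' means.

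The difference was 1.23 ± 0.25 SE in BN (2.35-fold, limma adjusted p = 0.0437) and 1.30 ± 0.25 SE in F344 (2.46-fold, limma adjusted p = 0.00905). Averaged over the strains it was 1.27 ± 0.17 SE (2.40-fold, 95% interval 1.83-fold to 3.16-fold, limma adjusted p = 0.00175). Within a strain the call turned on single arrays. In BN the call was lost without BN DA replicate 1 (difference 0.93, limma adjusted p = 0.0659), BN aorta replicate 1 (1.47, 0.142) or 2 (1.00, 0.193), either F344 DA array (0.0655) or either F344 aorta array (0.0841), and with only the BN arrays in the fit (0.146). In F344 it was lost without F344 DA replicate 1 (1.02, 0.0716) and without F344 aorta replicates 1 (1.28, 0.0649) and 2 (1.31, 0.0517). The averaged difference stayed past the threshold in all 17 alternatives run, at 1.11 to 1.42.

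Nr4a1, the nuclear receptor also called Nur77, was the other gene called between vessels. In BN it was at 6.98 and 6.68 in DA, against 6.60 and 6.50 in aorta. In F344 it was at 7.37 and 7.20 in DA, against 6.71 and 6.72 in aorta. DA arrays lay above aorta arrays within each strain, but the lower BN DA array was below both F344 aorta arrays.

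It rose in F344 DA by 0.56 ± 0.14 SE (1.48-fold, limma adjusted p = 0.0276) and did not pass in BN, at 0.28 ± 0.14 SE (limma adjusted p = 0.431). The averaged difference was 0.42 ± 0.10 SE (limma adjusted p = 0.0191). The receptor genes, which are dim, had a median difference of 0.79 between DA and aorta in F344 and 0.39 in BN, and their part in the value of Nr4a1 was not tested. The F344 call was lost without any single F344 array (limma adjusted p between 0.0858 and 0.155) and after repeated quantile normalization (0.53, 0.0656) or cyclic loess (0.52, 0.0648). The averaged call was lost without F344 DA replicate 1 (0.0748), F344 aorta replicate 1 (0.0747) or 2 (0.0677) or BN aorta replicate 2 (0.0547), and after repeated quantile normalization (0.0544). BN minus F344 in DA was -0.45 ± 0.14 SE (limma adjusted p = 0.096), where the receptor genes had a median of -0.48. Without BN DA replicate 1 it was -0.60, and the difference averaged over vessels was -0.38. Nr4a1 on the BN DA array then left, at 6.68, was under the receptor genes' 95th percentile there, 6.84. The part of dim signal in this strain difference was not tested.

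**Figure D1:**
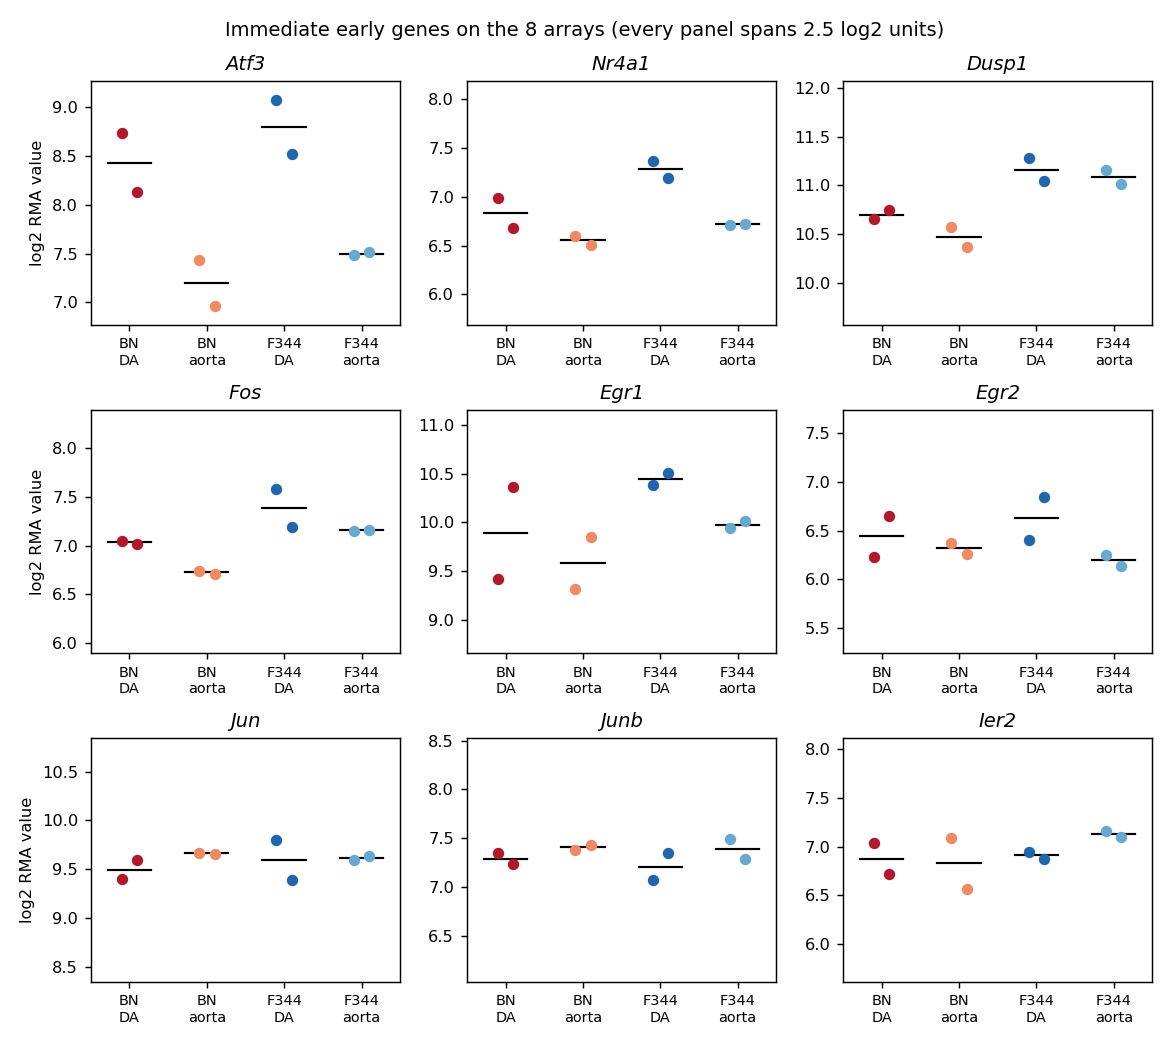
Log2 RMA value (y axis) of each gene on the 8 arrays, with a point for each array and a line for the mean of the 2 arrays of a group. Every panel spans 2.5 units; Atf3 is higher on all 4 DA arrays, from 8.13 to 9.08, than on the aorta arrays, from 6.97 to 7.52, and Dusp1 is lower on the 4 BN arrays than on the 4 F344 arrays.

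Dusp1, the phosphatase that ends kinase signalling, was called between strains, averaged over vessels, and in no comparison of vessels. BN arrays were at 10.66 and 10.74 in DA, against 11.28 and 11.04 in F344 DA. In aorta BN arrays were at 10.58 and 10.36, against 11.16 and 11.01 in F344. Every BN array lay below every F344 array, as was so for 1.84% of all genes and, among the 9, for Dusp1 and Fos.

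Averaged over the vessels, Dusp1 fell by 0.54 on the log2 scale in BN relative to F344, with an SE of 0.10 (1.45-fold, limma adjusted p = 0.0295). Within a vessel the difference did not pass, at -0.46 ± 0.14 SE in DA (limma adjusted p = 0.0907) and -0.61 ± 0.14 SE in aorta (limma adjusted p = 0.27). The averaged call was lost without any single F344 array (limma adjusted p between 0.0857 and 0.112) and without BN aorta replicate 1 (0.0698) or 2 (0.0883). After centring on brighter genes, which moved the median of all genes by -0.15, the difference in DA was -0.61 (limma adjusted p = 0.0496). With the replicate number as a block in the fit it was -0.46 (limma adjusted p = 0.0469). DA minus aorta was 0.23 ± 0.14 SE in BN and 0.08 ± 0.14 SE in F344, neither of which passed.

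Fos, the AP-1 subunit most used as a mark of recent stimulation, did not pass in any of the 7 comparisons as fitted. It was at 7.05 and 7.02 in BN DA, against 6.74 and 6.71 in BN aorta. In F344 it was at 7.58 and 7.19 in DA, against 7.15 and 7.16 in aorta. From high to low the group means were F344 DA, F344 aorta, BN DA and BN aorta, and no step between the vessels of a strain passed, at 0.31 ± 0.14 SE in BN and 0.23 ± 0.14 SE in F344. BN minus F344 averaged over vessels was -0.39 ± 0.10 SE (limma adjusted p = 0.079), and DA minus aorta averaged over strains was 0.27 ± 0.10 SE (limma adjusted p = 0.11). After centring on brighter genes, which moved the median of all genes by 0.13, DA minus aorta was 0.40 (limma adjusted p = 0.0249). With the replicate number as a block in the fit, BN minus F344 averaged over vessels was -0.39 (limma adjusted p = 0.0454).

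Egr1, the zinc finger factor with the CArG boxes shown above, was bright but varied between replicates. It was at 9.42 and 10.37 in BN DA, against 9.31 and 9.85 in BN aorta. In F344 it was at 10.38 and 10.50 in DA, against 9.94 and 10.01 in aorta. The vessels overlapped in BN and not in F344, and both BN DA arrays were below those of F344 DA. DA minus aorta was 0.31 ± 0.28 SE in BN and 0.46 ± 0.28 SE in F344, and BN minus F344 was -0.55 ± 0.28 SE in DA and -0.39 ± 0.28 SE in aorta; limma adjusted p was between 0.283 and 0.998. The BN value moved with single arrays, at 0.78 without BN DA replicate 1 and -0.16 without BN DA replicate 2. It was 0.04 without BN aorta replicate 1 and 0.58 without BN aorta replicate 2. Replicate 2 was above replicate 1 in both BN vessels, by 0.94 in DA and 0.54 in aorta. Leaving out 1 BN array thus leaves the replicate numbers unbalanced between the vessels. With only the F344 arrays in the fit the F344 difference passed (limma adjusted p = 0.0206). DA minus aorta averaged over strains was 0.39 (limma adjusted p = 0.22). Over the alternatives it ran from 0.15 to 0.62, the highest without BN DA replicate 1. BN minus F344 ran from -1.02 to -0.08 in DA and from -0.71 to -0.24 averaged over vessels, in both the lowest without BN DA replicate 2.

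Egr2, a second Egr factor known for its role in Schwann cells, was above the 95th percentile of the receptor genes on only 1 of the 8 arrays. It was at 6.23 and 6.65 in BN DA, against 6.38 and 6.26 in BN aorta, and at 6.40 and 6.85 in F344 DA, against 6.25 and 6.13 in F344 aorta. DA minus aorta was 0.12 ± 0.19 SE in BN and 0.43 ± 0.19 SE in F344 (limma adjusted p = 0.862 and 0.158), where the receptor genes had median differences of 0.39 and 0.79.

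Jun, Junb and Ier2 had the narrowest range of the 9 over the 8 arrays. Jun, the main partner of Fos, lay between 9.39 and 9.80 on all arrays. Its difference between DA and aorta was -0.17 in BN (95% interval -0.51 to 0.18) and -0.02 in F344 (95% interval -0.37 to 0.33). Junb, which can oppose Jun, lay between 7.07 and 7.49, with differences of -0.12 in BN (95% interval -0.43 to 0.20) and -0.18 in F344 (95% interval -0.50 to 0.14). Ier2 lay between 6.57 and 7.16, with differences of 0.04 in BN (95% interval -0.37 to 0.46) and -0.22 in F344 (95% interval -0.63 to 0.19). None passed in any of the 7 comparisons, which does not show that the vessels were alike.

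**Figure D2:**
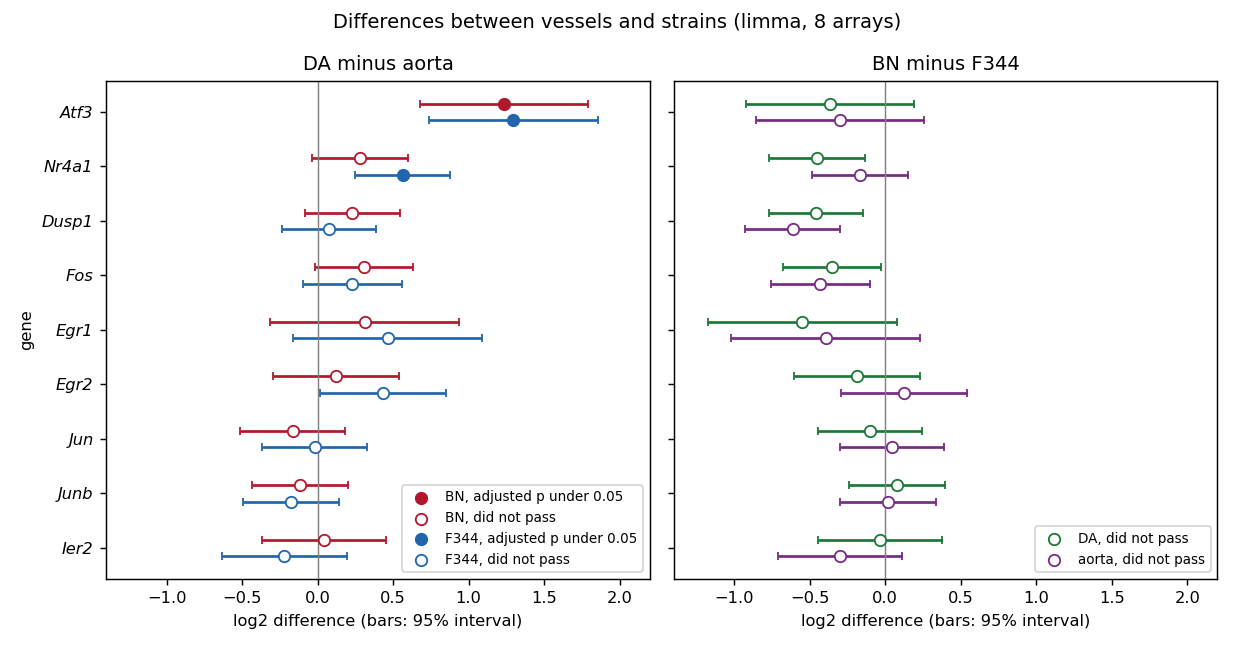
Log2 difference of each gene (x axis) with its 95% interval, DA minus aorta in each strain on the left and BN minus F344 in each vessel on the right. Filled points passed an adjusted p under 0.05; only Atf3 in both strains, at 1.23 in BN and 1.30 in F344, and Nr4a1 in F344, at 0.56, did so.

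The calls among the 9 are given beside the share of all 14506 genes called. Between DA and aorta limma called 1 of the 9 higher in BN, against 0.986% of all genes, and 0 lower, against 0.820% (1.81% in either direction). In F344 it called 2 higher, against 8.87%, and 0 lower, against 5.12% (14.0% in either direction). With the receptor genes left out of the fit, 2 members were called in F344, against 7.43% of all genes in either direction. Averaged over strains 2 were higher, against 10.1%, and 0 lower, against 6.47%. In BN 1 of the 9 had a limma unadjusted p under 0.05, against 2026 of all genes. In F344 3 of the 9 did, against 4273, and averaged over strains 3 did, against 4386.

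For BN minus F344 limma called 0 higher in DA, against 2.43%, and 0 lower, against 2.10% (4.53% in either direction). In DA 3 of the 9 had a limma unadjusted p under 0.05, against 3301 of all 14506 genes. In aorta limma called 0 higher, against 0.0827%, and 0 lower, against 0.0758% (0.159% in either direction). There 2 of the 9 had a limma unadjusted p under 0.05, against 757 of all genes. Averaged over vessels 0 were higher, against 1.63%, and 1 was lower, against 1.02%. In that comparison 4 of the 9 had a limma unadjusted p under 0.05, against 2754 of all genes. With 9 genes these shares rest on single genes.

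Arrays of the 2 groups did not overlap for more members than were called. DA lay above aorta for 4 of the 9 in BN, against 18.7% of all genes, and below for 2, against 18.5%. In F344 it lay above for 5, against 29.6%, and below for 1, against 37.8%. BN lay above F344 for 0 in DA, against 25.9%, and below for 4, against 24.3%. In aorta it lay above for 2, against 17.9%, and below for 6, against 17.8%. Over all 8 arrays DA lay above aorta for 1, Atf3, and below for 0, against 8.38%, and BN lay above F344 for 0, against 4.30%, and below for 2, Dusp1 and Fos.

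DA minus aorta had a median over the 9 of 0.23 in each strain, with 7 of 9 differences above 0 in BN and 6 of 9 in F344, against medians over all genes of 0.00 in BN and -0.04 in F344. BN minus F344 had medians of -0.35 in DA, with 8 of 9 below 0, and -0.30 in aorta, with 6 of 9 below 0, against 0.00 over all genes in both. Each group of arrays enters more than 1 of these comparisons, so they are not independent.

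A test of the interaction asked whether the DA minus aorta difference was unequal between BN and F344, in either direction. Limma called 0 of the 9 and 0% of all genes. For the interaction 0 of the 9 had a limma unadjusted p under 0.05, against 1403 of all 14506 genes. The interaction of Atf3 was -0.06 (95% interval -0.85 to 0.72), that of Nr4a1 -0.28 (95% interval -0.73 to 0.16) and that of Dusp1 0.15 (95% interval -0.29 to 0.60). Intervals this wide do not show that the strains act alike.

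In DA the replicates of these genes stood further apart, by their median, than those of all genes. The median absolute replicate difference of the 9 was 0.30 in BN DA and 0.28 in F344 DA, against 0.21 and 0.14 over all genes in those groups. In aorta it was 0.12 in BN and 0.06 in F344, against 0.17 and 0.11 over all genes. Egr1 had a within-group SD of 0.39, larger than in 97.6% of genes, and Atf3 of 0.34, larger than in 95.5%, where the median gene had 0.15. Dusp1, Nr4a1, Junb and Fos, between 0.13 and 0.14, were below the median gene.

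**Figure D3:**
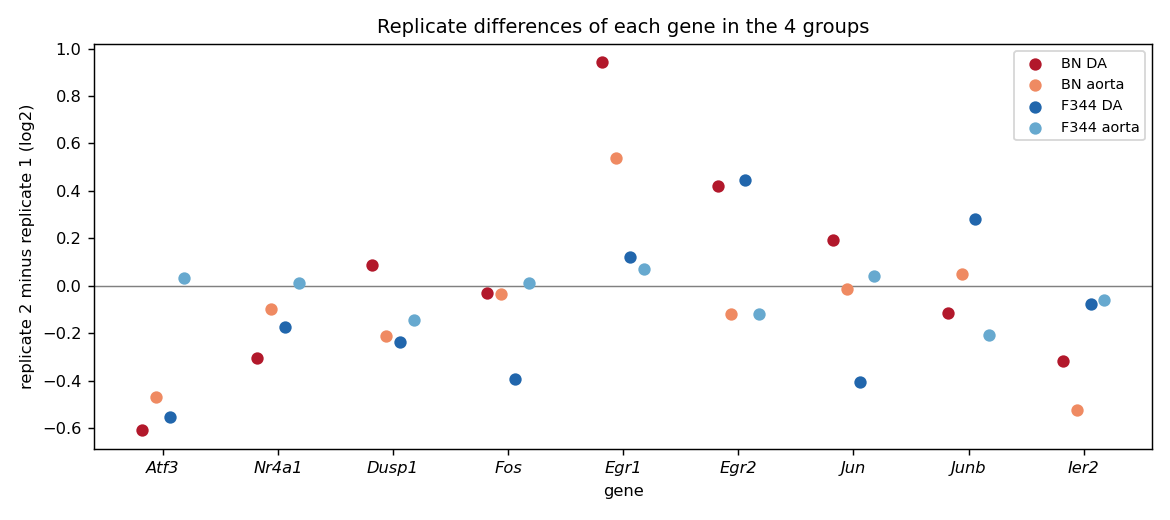
Replicate 2 minus replicate 1 (y axis, log2) of each gene, with a point for each group. Egr1 differs by 0.94 in BN DA and 0.54 in BN aorta, and Atf3 by -0.61 in BN DA, -0.55 in F344 DA and -0.47 in BN aorta.

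Of other immediate early genes, all 23 listed transcription factors and 39 of 41 listed genes of other function had a probe set, 62 in all. Averaged over strains, 4 rose in DA and 8 fell, or 19.4% called, against 16.6% of all genes (10.1% higher and 6.47% lower). The median of the 62 was -0.07, against -0.02 over all genes. Among 23 transcription factors 1 rose and 4 fell, beside the same shares of all genes. Npas4, known as an activity-dependent factor of neurons, passed with a difference of 0.65 ± 0.13 SE (limma adjusted p = 0.00964), at 7.19 and 6.57 in BN DA, against 6.13 and 6.18 in BN aorta, and at 6.86 and 6.84 in F344 DA, against 6.18 and 6.35 in F344 aorta. Its signal was above the 95th percentile of the receptor genes on only 1 of the 8 arrays, and the receptor genes had a median difference of 0.58 in this comparison, so a change of Npas4 cannot be told apart from that of dim signal. Klf2, which laminar flow induces in endothelium, had a difference of -0.49, Klf4 of -0.41 and the AP-1 subunit Jund of -0.40.

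Among 39 genes of other function 3 rose and 4 fell in the averaged comparison, against 10.1% and 6.47% of all genes. Thbs1, the matrix protein thrombospondin, rose by 0.60, but its DA and aorta arrays overlapped and it passed in neither strain alone. The chemokine Ccl2 rose by 0.53, less than the receptor genes' median difference of 0.58. Ccl2 was above their 95th percentile on 6 of the 8 arrays, and the part of dim signal in its value was not tested. Dusp6, an ERK phosphatase, fell by 0.67 and Hbegf, an EGF receptor ligand, by 0.59. Dusp6 was at 6.89 and 7.29 in BN DA, against 7.62 and 7.45 in BN aorta, and at 6.89 and 6.72 in F344 DA, against 7.77 and 7.65 in F344 aorta, so it lay lower in DA on every array while Atf3 lay higher. Within F344 Ccn1 rose by 0.51, and Dusp6 (-0.90), Hbegf (-0.76), Dusp8 (-0.70), Klf2 (-0.68) and Jund (-0.66) fell. In F344 9.68% of the 62 were called, against 14.0% of all genes. Leaving the receptor genes out of the fit lowered the share of all genes to 7.43%. The share of the 62 in that fit is not given here. Within BN 1 of the 62, Ccl2, rose, by 0.84, or 1.61% called, against 1.81% of all genes.

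Between strains, averaged over vessels, 0 of the 62 rose and 2 fell in BN, against 2.65% of all genes called. Errfi1, a feedback inhibitor of the EGF receptor, fell by 0.56 ± 0.09 SE (limma adjusted p = 0.0223), and Ier3, an early gene of stress and growth signals, by 0.52 ± 0.10 SE (limma adjusted p = 0.0343). Errfi1 was at 12.13 and 12.38 in BN DA, against 12.90 and 12.80 in F344 DA, and at 11.951 and 11.997 in BN aorta, against 12.58 and 12.42 in F344 aorta. Its BN arrays lay below all F344 arrays, as those of Dusp1 did. In DA alone Errfi1 had -0.60 and Ccl2 0.61, both past the threshold. That was 3.23% of the 62, against 4.53% of all genes.

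Of 19 measured kinases and factors upstream of these genes, among them Srf, Elk1 and Creb1, 1 rose and 1 fell in DA averaged over strains, against 16.6% of all genes called. Within a strain 0 passed, against 1.81% in BN and 14.0% in F344 (7.43% with the receptor genes left out of the fit). Crem, whose ICER product is itself an early repressor of cAMP targets, rose by 0.46 ± 0.11 SE (limma adjusted p = 0.0194), and the p38 kinase kinase Map2k6 fell by 0.32. Crem was at 8.49 and 8.10 in BN DA, against 7.82 and 7.80 in BN aorta, and at 8.20 and 8.19 in F344 DA, against 7.67 and 7.88 in F344 aorta.

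Of 19 co-regulators and targets of AP-1 and Egr, 0 rose and 3 fell in DA averaged over strains, against 10.1% and 6.47% of all genes. The secreted phosphoprotein Spp1 (osteopontin) fell by 1.74, the bZIP factor Mafk by 0.52 and the AP-1 repressor Jdp2 by 0.51. Between strains 2 rose and 1 fell in BN averaged over vessels, against 1.63% and 1.02% of all genes, Spp1 (1.06), Vegfa (0.79) and the protease inhibitor Timp1 (-0.62).

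Stress lists were read beside Atf3. Of 12 heat shock genes 4 passed as higher and 0 as lower in DA averaged over strains, against 10.1% and 6.47% of all genes, the background also for both lists that follow. They were led by the small heat shock proteins Hspb1 (1.44 ± 0.21 SE, limma adjusted p = 0.00217) and Cryab (0.71), which smooth muscle also uses, with Hspb8 at 0.54 and Hsph1 at 0.52. Within a strain only Hspb1 passed, in F344 (limma adjusted p = 0.00808) and not in BN (0.0747). DA and aorta arrays overlapped for Cryab and Hsph1. Hspb8 was below the 95th percentile of the receptor genes on all 8 arrays, and its difference was smaller than their median of 0.58. Hspb1 was at 10.90 and 9.83 in BN DA, against 9.35 and 8.85 in BN aorta, and at 11.24 and 11.22 in F344 DA, against 9.65 and 9.59 in F344 aorta. Of 8 genes of the integrated stress response, a pathway that can induce Atf3 through Atf4, 1 rose and 1 fell. The asparagine synthetase gene Asns rose by 0.50 and the stress-induced Nupr1 fell by 1.79. Nupr1 was at 10.11 and 9.77 in BN DA, against 11.02 and 10.44 in BN aorta, and at 7.09 and 7.02 in F344 DA, against 9.94 and 9.74 in F344 aorta. The F344 DA arrays were the lowest, with DA minus aorta at -2.78 in F344 (limma adjusted p = 0.000252) and -0.79 in BN (limma adjusted p = 0.0906). Ddit3 lay between 7.11 and 7.32 on all arrays. Of 10 glucocorticoid-induced genes 1 rose, the metallothionein Mt2A by 0.52, and 1 fell, the cell cycle inhibitor Cdkn1a by 0.35, in DA. Averaged over vessels 0 of these 10 rose and 2 fell in BN, against 1.63% and 1.02% of all genes, the clock gene Per1 by 0.52 and Errfi1.

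**Figure D4:**
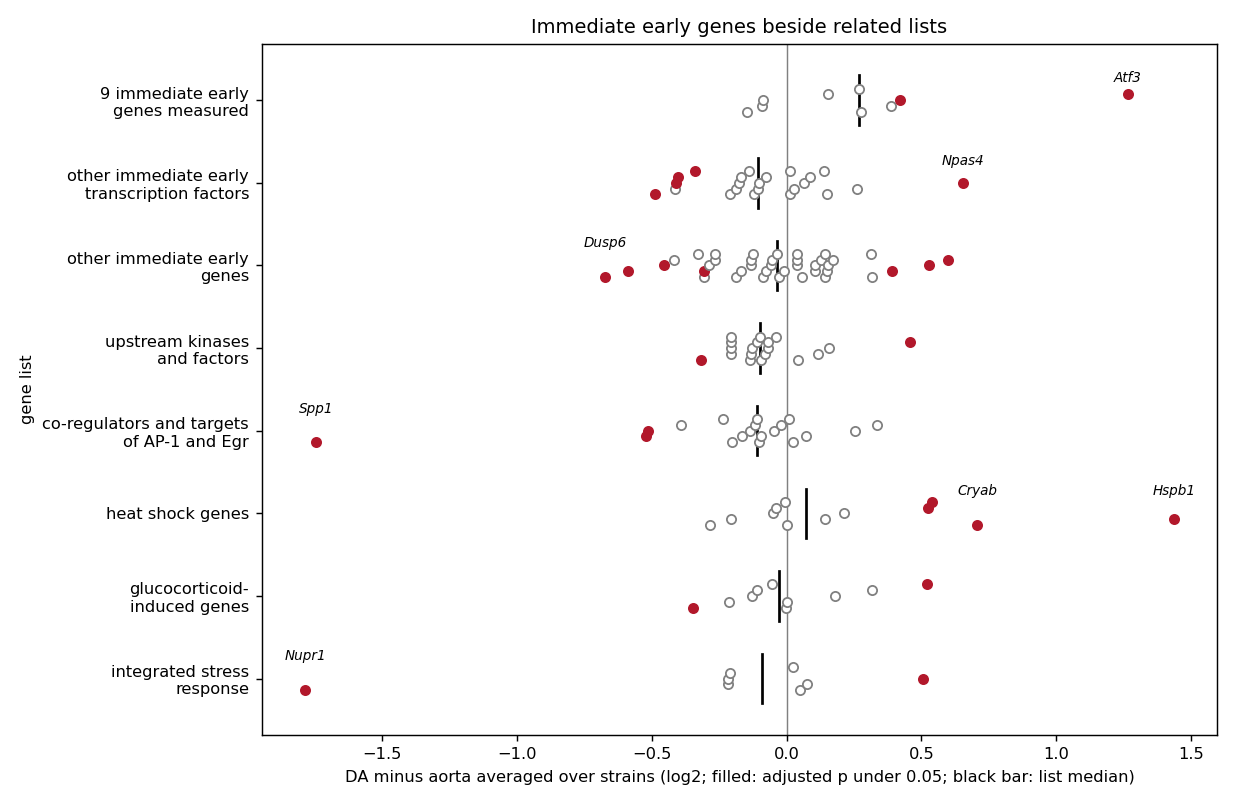
DA minus aorta averaged over strains (x axis, log2) for each gene of 8 lists (rows), with filled points for an adjusted p under 0.05 and a black bar for the list median. Atf3 at 1.27 and Hspb1 at 1.44 lie far to the right, Spp1 at -1.74 and Nupr1 at -1.79 far to the left, and most genes lie near 0.

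Markers of other cells also differed between the vessels, and in pooled tissue fewer cells of a type and less RNA per cell cannot be told apart. Averaged over strains, 5 of 10 smooth muscle markers rose in DA and 0 fell (median 0.30), 0 of 8 fibroblast markers rose and 5 fell (median -0.60), 0 of 14 macrophage markers rose and 6 fell (median -0.38), and 0 of 11 endothelial markers rose and 3 fell (median -0.19), against 10.1% higher and 6.47% lower over all genes. Of 10 lymphocyte, 7 erythroid, 10 cardiomyocyte and 7 neural markers 0 passed, with medians of 0.36, 0.43, 0.03 and 0.15. Endothelial markers had list means of 8.77 and 9.04 in BN DA, against 8.82 and 8.87 in BN aorta, and between 8.41 and 8.46 in F344 DA, against 8.88 and 9.01 in F344 aorta. Erythroid list means ranged from 8.15 to 9.70 in BN DA, 8.13 to 9.11 in BN aorta, 8.25 to 9.33 in F344 DA and 7.91 to 8.69 in F344 aorta. The part of these cells in the values of Atf3, Nr4a1 and Dusp1 was not tested.

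The mean of the 9 genes, each centred on its own mean, was 0.33 and 0.21 on the F344 DA arrays, -0.01 and 0.02 in BN DA, 0.00 and -0.04 in F344 aorta and -0.20 and -0.30 in BN aorta. The genes did not all follow it. Over the 8 arrays, which share groups, the Pearson correlation of a gene with the mean of the other 8 was 0.90 for Fos and for Nr4a1, 0.77 for Dusp1 and 0.66 for Atf3, but 0.07 for Ier2, -0.12 for Jun and -0.70 for Junb. Among 1413 other genes that were bright and variable enough, those closest to the mean profile over the 8 arrays were Hipk2 (r = 0.98), Olfml2b (0.96), Fancd2osl1 (0.96), Ptger4 (0.94), Enpp3 (0.94) and Plat (0.93). Ptger4, the prostaglandin E2 receptor EP4 that holds the fetal ductus open, was at 9.60 and 8.82 in BN DA, against 8.83 and 8.16 in BN aorta, and at 10.75 and 10.53 in F344 DA, against 9.42 and 9.33 in F344 aorta. These correlations describe the group order and carry no test. The dim receptor genes had medians of 5.97 and 6.04 in F344 DA and 5.29 and 5.61 in BN DA. In aorta their medians were 5.04 and 5.17 in F344 and 4.93 and 5.09 in BN. Fos, Junb, Nr4a1, Ier2 and Egr2 were not above the receptor genes' 95th percentile on every array. The part of dim signal in the mean profile was not tested.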

How the data were processed

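Affymetrix Rat Gene 1.0 ST arrays measured total RNA (150 ng, biotin-labelled, per the labels) from pooled vessels. The authors deposited log2 values, read as log2 from their range, and RMA, which corrects background, normalizes between arrays and summarises probe sets, is named per the submitters' processing notes. Nothing further, such as a version, filter or genome build, is given in the sources used here. The number of arrays limits the precision.

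Of 29215 probe sets, 15310 had 1 symbol in the platform annotation, 323 several, and 13582 were not listed and are unnamed here. Symbols were checked through Entrez identifiers, and 31 had no match. The probe set with the highest mean was kept per gene. One limma model (version 3.58.1, R 4.3.3) with 4 group means was fitted to all 8 arrays and 14506 genes, with 4 residual and 5.2 prior degrees of freedom. Tests were two-sided, and a call is a Benjamini-Hochberg adjusted p under 0.05 over all genes. The tests were tested on simulated data. No low-value filter was used.

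The members, 7 pathway lists and 8 marker lists were chosen with earlier results of these data known. All members were named, up to 4 called genes of a list with the largest differences in a comparison, and the 6 genes closest to the members' mean profile; Srf, Elk1, Creb1, Ddit3, Acta2 and Myh11 were added after values were seen. Sequences came from the RefSeq promoter table of build GRCr8. The fit was repeated with a mean-variance trend, with robust moderation, without dim genes, after quantile normalization, after centring on brighter genes, on means over probe sets, with the replicate number as a block, on the compared arrays alone and without each array; cyclic loess and leaving out receptor genes were chosen after seeing the data.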

Additional observations from a re-analysis of the deposited data

How the results depend on the processing

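Of 63 member differences, 1072 values under 18 alternatives gave 989 with the same direction and side of the threshold, 28 that lost a call, 12 that gained one, 0 called values that changed sign and 43 uncalled ones that did. Between DA and aorta in F344 the called members were 2 as reported and 1 without dim genes, where Nr4a1 was not tested, 1 after cyclic loess and 1 when quantile normalization was repeated, and 0 to 2 with an array left out. In BN 1 was called, 0 with only the arrays compared and 0 to 1 with an array left out. Averaged over strains 2 were called, 3 (Fos added) after centring, 1 without dim genes and 1 after repeated quantile normalization, and 1 to 3 with an array left out. For BN minus F344 in DA 0 were called, 2 (Nr4a1 and Dusp1) after centring on brighter genes and 2 with the replicate block, and 0 to 1 with an array left out. Averaged over vessels 1 was called, 2 (Dusp1 and Fos) with the replicate block and 0 to 2 with an array left out. With only the arrays compared, 3 members were called for DA minus aorta in F344 (Egr1 added). Fits with 1 array in a group assume that it varies like the others. Centring moved the median difference of all genes by 0.21 for DA minus aorta in F344, -0.15 for BN minus F344 in DA, 0.13 for DA minus aorta averaged over strains and -0.16 for the interaction, and the calls it added are relative to that shift. The share of all genes called ranged over the alternatives from 4.45% to 23.2% for DA minus aorta in F344, 0.11% to 4.14% in BN, 0.0896% to 10.9% for BN minus F344 in DA, 0% to 0.476% in aorta, 0% to 0.386% for the interaction, 9.38% to 22.2% averaged over strains and 0.379% to 7% averaged over vessels. Replicate differences over all genes correlated between groups at 0.03 to 0.52, over 0.1 in 5 of 6 pairs of groups. The exception, F344 aorta and BN DA (0.03), differs in both strain and vessel. Within a strain, DA and aorta correlated at 0.52 in BN and 0.22 in F344. The main fit did not take the replicate numbers as pairs, because not every pair of groups was over 0.1. The exception is not among the comparisons of 2 groups made here. Any shift shared by arrays with the same replicate number was therefore left in the residual spread of the main fit, and calls depended on this choice. With the replicate block, limma adjusted p for BN minus F344 in DA was 0.0458 for Nr4a1 and 0.0469 for Dusp1. For Fos averaged over vessels it was 0.0454. For Atf3, DA minus aorta in F344, it was 0.00141 with the block and 0.00905 without. Erythroid list means were higher in replicate 1 than in replicate 2 of every group, at 9.70 and 8.15 in BN DA, 9.11 and 8.13 in BN aorta, 9.33 and 8.25 in F344 DA and 8.69 and 7.91 in F344 aorta, and their part in the values was not tested. The cause of these changes was not tested. Signal limits Egr2, which was not above the receptor genes' 95th percentile on 7 of 8 arrays, and in part Nr4a1, Ier2, Junb and Fos.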
